A study of Homo sapiens with 8 samples.

Results

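HBZ, ZFPM1, SLC4A1 and TMCC2 are 4 genes tied to red blood cell formation, picked by their gene names from the 1950 genes of a deposited RNA-seq table of K562 cells. HBZ codes for zeta globin, SLC4A1 for the anion exchanger of the red cell membrane, TMCC2 for a membrane protein with coiled coils, and ZFPM1 for the zinc finger protein FOG1. K562 is an established human line from a chronic myeloid leukemia. In 4 libraries, called extract 1 to 4, the cells had been treated for 3 days with 80 µg/mL of CPM, which the series title spells out as Caulis Polygoni Multiflori, the stem of a medicinal plant. The 4 other libraries, called control 2 to 5 after the numbers in their labels, came from cells without it. All 8 came from the same line in the same medium, and no time in culture was labelled for the controls, so a difference in time in culture cannot be told apart from the treatment. The groups follow the treatment label of each sample. The series title is about the formation of megakaryocytes and platelets.

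Red cells and megakaryocytes share a progenitor, and the transcription factor GATA1 works in both lineages, largely together with FOG1, which binds GATA1 and not DNA itself. Globin genes are among the targets of GATA1, and zeta globin is the alpha-type chain of embryonic hemoglobin, which K562 cells are known to make. The anion exchanger, also called band 3, comes late in red cell formation, where it swaps chloride for bicarbonate and anchors the membrane skeleton.

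All 4 genes had higher values with the extract, and for each of them every extract library lay above every control library. HBZ rose 1.77-fold and ZFPM1 1.69-fold as ratios of group means. For SLC4A1 the ratio was 1.66 and for TMCC2 2.34, at values near or below 1. The authors deposited only genes that had already passed their own test of these same libraries, with a p-value of at most 0.0499 and a change of at least 1.5-fold, and 43.6% of the listed genes were higher with the extract. A difference in these 4 genes is not independent evidence for this reason. Groups that did not overlap, with the extract higher, were found in 14.6% of the 1950 listed genes. No source used here names the unit of the values, and depth is unknown, so no biological meaning is read from the levels of one gene against another. Sums and ratios over genes below are of the deposited values, used to follow how they moved between groups.

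HBZ lies at chromosome 16, 152687 to 154503 on the forward strand (GRCh38, GENCODE release 29), at the start of the alpha globin cluster. Its annotation has 1 transcript and overlaps that of HBM, the gene for mu globin. A pseudogene copy, HBZP1, lies in the same cluster. The coding part of HBZ, 429 bases long, matched the copy at 426 bases (99.3%), with a longest run of 357 bases without a difference. The first 90 coding bases of both are shown because they hold 2 of the 3 differences, in capitals.
HBZ: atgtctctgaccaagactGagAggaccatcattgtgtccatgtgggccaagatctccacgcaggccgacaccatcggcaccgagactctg
HBZP1: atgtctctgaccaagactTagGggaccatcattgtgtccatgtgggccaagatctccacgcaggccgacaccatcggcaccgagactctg
Counted from the first coding base of HBZ, the differences were G19T, A22G and A380C, with the base of HBZ first. A read wholly within the coding part that covers none of these carries no base that tells the 2 genes apart. The deposited HBZ value may therefore include reads of the copy. Sequence outside the coding part was not compared. The adult alpha globin gene HBA1 was much less alike (68.5% identity, longest shared run 30 bases).

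The zeta globin values were even within each group. The HBZ values were 2835.89, 2912.94, 2834.06 and 2920.21 in control 2, 3, 4 and 5, a mean of 2876 ± 47.2 (SD, n = 4). In extract 1, 2, 3 and 4 they were 5057.4, 5306, 4951.9 and 5071.77, a mean of 5097 ± 149 (SD, n = 4). The lowest extract library was 1.70 times the highest control library, and the coefficient of variation was 1.64% in control and 2.93% in extract. HBZ rose by 0.83 ± 0.02 (SE) on the log2(value + 1) scale, with an adjusted p of 3.99e-08 in limma. Limma called 26.8% of the 750 tested genes higher with the extract. The exact two-sided permutation test over the 8 libraries gave p = 0.0286, the smallest that 4 against 4 allows. The call was lost with quantile normalization (log2 change 0, limma adjusted p = 1), which by its construction gives the top gene of every library the same value.

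**Figure D1:**
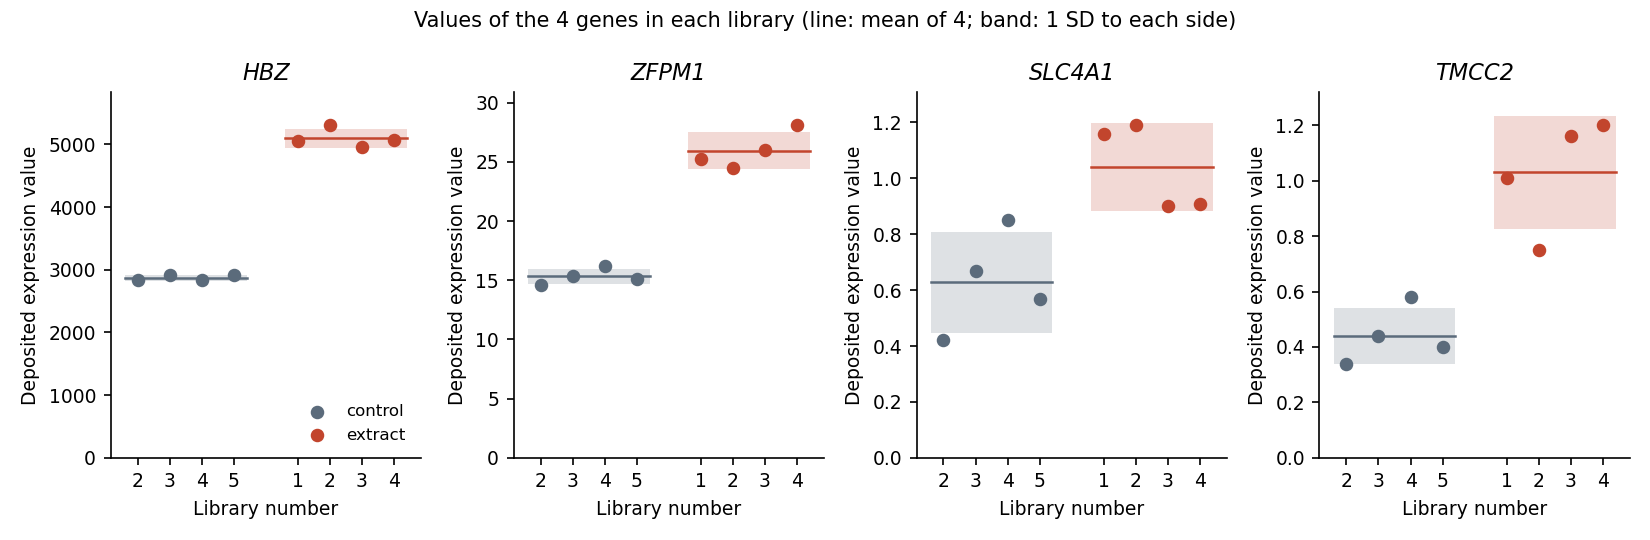
Deposited expression value (linear axis from 0) of HBZ, ZFPM1, SLC4A1 and TMCC2 in each library, with the 4 control libraries left and the 4 extract libraries right; lines are group means and bands 1 SD to each side. No control point reaches an extract point in any panel, but the gap is 2031.69 for HBZ and 0.05 for SLC4A1.

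HBZ also made up much of the sum of the deposited values. It held between 20.6% and 21.1% of the summed values of the listed genes in the control libraries and between 37.8% and 39.5% in the extract libraries. The mean share was 20.8% ± 0.205 in control and 38.4% ± 0.793 in extract (SD, n = 4 each). The sum of all listed genes changed by −4.01%, from 13830 ± 224 in control to 13275 ± 144 in extract. This change was small, but the groups did not overlap (13629 to 14134 in control, 13114 to 13433 in extract). Without HBZ the sum fell from 10954 ± 187 to 8179 ± 78.6, a change of −25.3%, so HBZ rose by 2221 while the other listed genes together fell by 2775. The list is partial, and the share of HBZ in the whole library is not known. When each library was scaled to its sum without HBZ, the log2 change was 1.25 for HBZ and 1.12 for ZFPM1, and after median centring of the libraries over tested genes 1.09 and 0.99. This centring moved the median log2 change of all tested genes by 0.27, and the scaling to the sum without HBZ moved it by 0.30. Both raise the log2 change of every tested gene by their construction, so rises grow and falls weaken. The listed genes were preselected for change, and whether they are a fit basis for scaling was not tested.

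**Figure D2:**
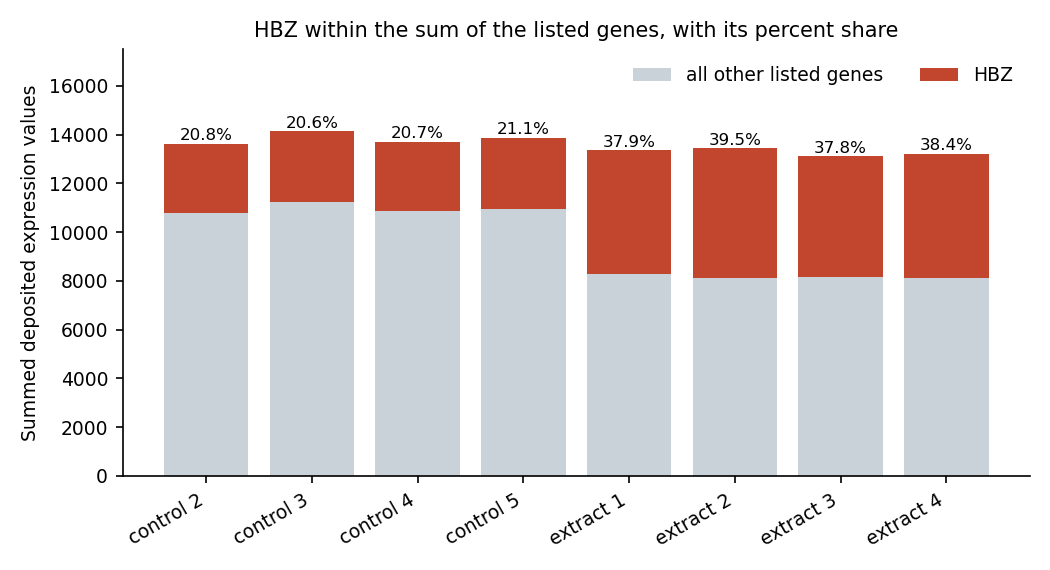
Summed deposited expression values of the 1950 listed genes in each library (linear axis from 0), divided into HBZ and all other listed genes, with the share of HBZ in percent above each bar. The bars are of similar height, while the HBZ part grows from about 20.8% in control to 38.4% in extract.

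ZFPM1, the gene for FOG1, rose as well, with no overlap between the groups. It lies at chromosome 16, 88453317 to 88537016 on the forward strand, on the same chromosome as HBZ but near its other end, with 5 annotated transcripts. Its values were 14.64, 15.33, 16.2 and 15.15 in control 2, 3, 4 and 5 and 25.21, 24.5, 25.97 and 28.1 in extract 1, 2, 3 and 4. The means were 15.3 ± 0.649 and 25.9 ± 1.56 (SD, n = 4 each), and extract 4 was the highest library of all. The log2(value + 1) change was 0.72 ± 0.06 (SE), with a limma adjusted p of 2.13e-05 and an exact two-sided permutation p of 0.0286. ZFPM1 stayed past the threshold of 0.05 under each of 17 other settings of the limma fit, including adjustment over the 60664 genes of the authors' own test (adjusted p = 0.00172). Its log2 change was 1.19 with quantile normalization.

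The authors' deposited table gave ZFPM1 a larger change than its values show. The deposited log2 fold change was 0.98, against 0.76 for the ratio of the group means, a gap of 0.22. Among the 747 tested genes with both group means above 0 the median gap was 0.03, and 128 of them (17.1%) were off by 0.2 or more in either direction. For HBZ the deposited log2 fold change was 0.86 against 0.83, for SLC4A1 0.64 against 0.73 and for TMCC2 1.29 against 1.23. No source used here names the tool behind the deposited fold changes, and the cause of the gap was not tested.

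**Figure D3:**
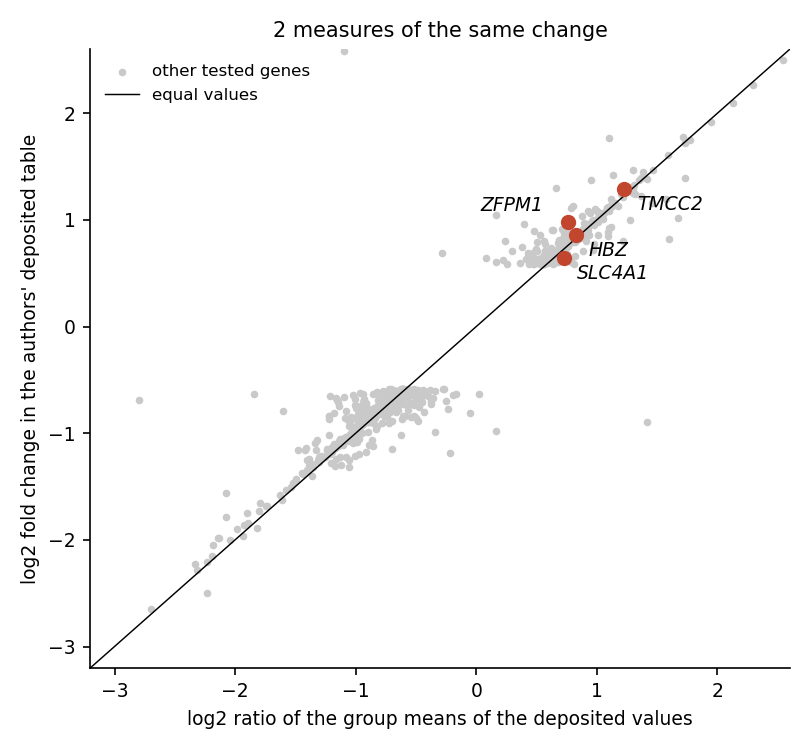
Log2 fold change in the authors' deposited table (vertical axis) against the log2 ratio of the group means of the deposited values (horizontal axis) for the tested genes in grey and the 4 genes in red; 6 of the 747 tested genes lie outside the axes. HBZ, TMCC2 and SLC4A1 sit close to the line of equal values, and ZFPM1 sits above it.

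An antisense gene inside ZFPM1, ZFPM1-AS1, was also in the table. It is annotated on the reverse strand at chromosome 16, 88512960 to 88531053, wholly within ZFPM1. It was listed at 0 in 3 of the 4 control libraries and at 0.26 in control 3, and its values were 1.33, 0.38, 0.37 and 0.13 in extract 1, 2, 3 and 4. The authors' deposited table gave it a log2 fold change of 2.92 and an adjusted p of 0.0406. Control 3 was above extract 4, so its groups overlapped. No source used here says whether strand was kept, and without strand the reads of ZFPM1 and of its antisense partner cannot be told apart where they overlap.

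SLC4A1, the band 3 gene, had values between 0.42 and 1.19, with little room between the groups. It lies at chromosome 17, 44248385 to 44268141 on the reverse strand, with 5 annotated transcripts and no overlapping gene. Its values were 0.42, 0.67, 0.85 and 0.57 in control 2, 3, 4 and 5 and 1.16, 1.19, 0.9 and 0.91 in extract 1, 2, 3 and 4. The means were 0.628 ± 0.18 and 1.04 ± 0.156 (SD, n = 4 each). Extract 3 and 4 lay just above control 4, by 0.05 at the closest, and extract 1 and 2 lay well above it. The coefficient of variation was 28.8% in control, against 4.24% for ZFPM1. With 2 decimals deposited, 1 step of 0.01 is 1.59% of its control mean. The log2(value + 1) difference was 0.33, with an exact two-sided permutation p of 0.0286, and it was 0.67 with a pseudocount of 0.1 and 0.60 with median centring.

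TMCC2 had the largest ratio of the 4 genes, again at low values. It lies at chromosome 1, 205228176 to 205285632 on the forward strand, with 10 annotated transcripts and an antisense gene inside it that was not analysed here. Its values were 0.34, 0.44, 0.58 and 0.4 in control 2, 3, 4 and 5 and 1.01, 0.75, 1.16 and 1.2 in extract 1, 2, 3 and 4. The means were 0.44 ± 0.102 and 1.03 ± 0.204 (SD, n = 4 each). Extract 2 was the lowest of its group and still 1.29 times the highest control library. The log2(value + 1) difference was 0.49, with an exact two-sided permutation p of 0.0286, and it was 1.06 with a pseudocount of 0.1 and 0.76 with median centring.

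SLC4A1 and TMCC2 reached a value of 1 in 2 and 3 libraries, all of them extract libraries, and did not pass the filter of the limma fit, which asked for 1 in 4 libraries. So 2 of the 4 genes were tested in limma, and both were called, where 82.8% of the tested genes were called in either direction. Without the filter, over all 1950 genes, limma gave an adjusted p of 0.00786 for TMCC2 and 0.0401 for SLC4A1. In that fit 16.1% of the listed genes were called higher. In the authors' deposited table the adjusted p was 1.47e-06 for TMCC2 and 0.00815 for SLC4A1, and 18.3% of the listed genes were higher with an adjusted p under 0.05. Leaving out 1 library at a time, the log2 difference of SLC4A1 lay between 0.27 and 0.39 and that of TMCC2 between 0.45 and 0.56.

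**Figure D4:**
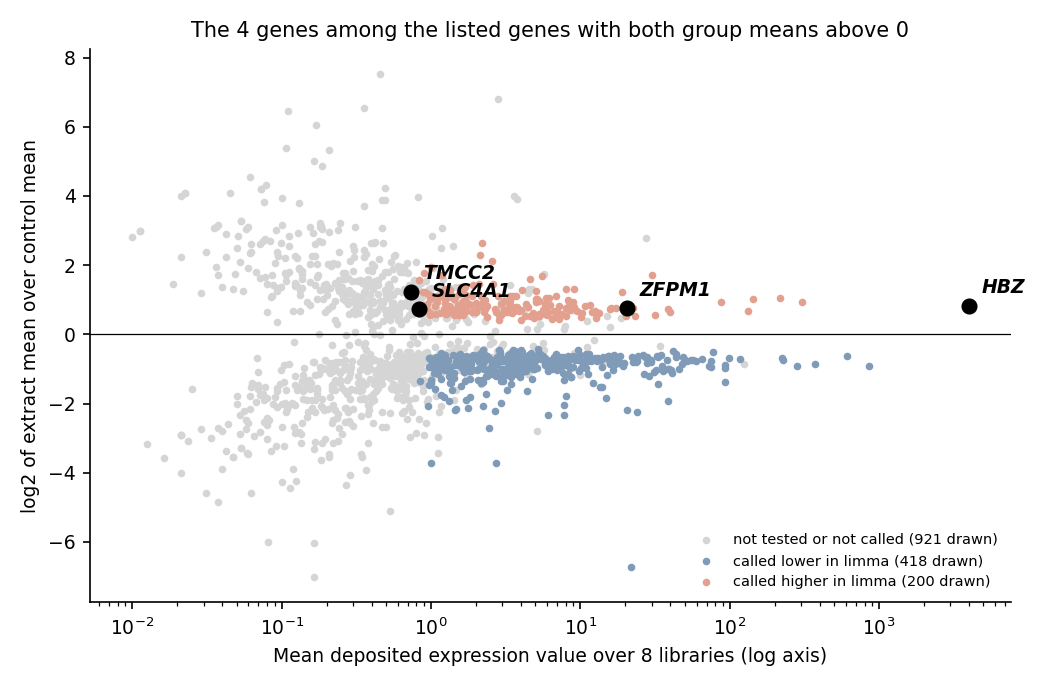
Log2 ratio of the extract mean over the control mean (vertical axis) against the mean deposited expression value over the 8 libraries (horizontal log axis) for the listed genes with both group means above 0, coloured by the limma call, with the 4 genes in black. HBZ lies at the far right, ZFPM1 in the middle and SLC4A1 and TMCC2 at mean values below 1, where points spread widely in both directions.

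Ratios between the 4 genes had overlapping groups. A ratio of 2 genes within a library does not depend on how that library was scaled, and all 6 pairs were compared. With 4 against 4 libraries the smallest exact p is 0.0286, which for 1 pair alone becomes 0.171 when adjusted over the 6, so no single pair could pass 0.05 by itself. The log2 ratio of HBZ over ZFPM1 was 7.55 ± 0.0687 in control and 7.62 ± 0.112 in extract (SD, n = 4 each), a change of 0.07 with an exact permutation p of 0.371. The ratio of ZFPM1 over TMCC2 moved by −0.47, from between 4.8 and 5.43 in control to between 4.48 and 5.03 in extract. Its exact permutation p was 0.0571, or 0.343 adjusted over the 6 pairs. The ratio of HBZ over TMCC2 moved by −0.41 (exact permutation p = 0.143, adjusted 0.4), and that of SLC4A1 over TMCC2 by −0.47 (exact permutation p = 0.2, adjusted 0.4). For HBZ over SLC4A1 and ZFPM1 over SLC4A1 the changes were 0.06 and −0.005 (adjusted exact permutation p = 0.891 and 1). The groups overlapped in all 6 ratios, and the order of the 3 ratios over TMCC2 was not kept when a library was left out.

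Within the control group ZFPM1, SLC4A1 and TMCC2 put the libraries in 1 order, from control 2 through 5 and 3 to control 4 as the highest. HBZ did not follow it, with control 4 the lowest and control 5 the highest. In the extract group ZFPM1 and TMCC2 again shared an order, with extract 2 lowest and extract 4 highest, while SLC4A1 was lowest in extract 3 and HBZ was highest in extract 2. With 4 libraries per group these orders are given as a description.

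Other red cell genes in the table went both ways. The lists of heme and iron genes, red cell membrane genes and other late erythroid genes hold 26, 33 and 26 genes, of which 1, 3 and 2 were listed, SLC4A1 and TMCC2 among them. That is 6 of 85 genes (7.06%), beside 1950 of the 60664 genes of the authors' test (3.21%). SLC4A1 and TMCC2 were picked from the table itself and were certain to count, so these shares cannot show an excess of red cell genes. SEMA7A, which carries the John Milton Hagen blood group, rose from 6.13 ± 0.673 to 11.6 ± 1.36, with a limma adjusted p of 0.000248. FHDC1, a formin family gene, rose from 2.30 ± 0.186 to 4.51 ± 0.33 (limma adjusted p = 0.000201). ABCG2, a membrane transporter that exports porphyrins, rose from 1.56 ± 0.16 to 2.45 ± 0.158 (limma adjusted p = 0.00286, and 0.231 over the 60664 genes), and its log2 change was 0.43, or 0.71 when libraries were scaled to the sum without HBZ. AQP1, the water channel of the red cell membrane, fell from 8.07 ± 0.23 to 5.16 ± 0.24 (limma adjusted p = 0.000182). The log2 change of AQP1 was −0.56, but −0.29 with median centring and −0.20 when scaled to the sum without HBZ (limma adjusted p = 0.00428 and 0.0329). Both settings weaken every fall by their construction. Each of these 4 had groups that did not overlap, with n = 4 in each, and 27.3% of all listed genes were lower without overlap. Of the 4 tested genes of these lists 3 rose, where limma called 26.8% of all tested genes higher and 56% lower. The lists were chosen with earlier results of these data known, so these 4 genes cannot show a direction of red cell genes.

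No other red cell globin was listed. Of the 14 genes of the globin list, which includes the alpha globin chaperone AHSP, 2 were in the table, HBZ and CYGB, the gene for cytoglobin, which is not a red cell gene. CYGB was listed at 0 in extract 1, 2 and 3 and in control 5, at 0.04 in extract 4 and between 0.21 and 0.44 in the other controls. Of 16 genes in and around the alpha globin cluster only HBZ was listed. Among the families of the 4 genes SLC4A11, a relative of SLC4A1, was the other listed member, with values of 0.398 ± 0.223 in control and 0.168 ± 0.105 in extract, overlapping between groups. Of all genes of the authors' test 3.21% were listed, and the 4 genes were certain to be, so these counts cannot show an excess. The genes not listed were not analysed here.

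Among the transcription factors ZFPM1 was the gene that rose. Of 30 factors of the erythroid and megakaryocyte lineages 5 were listed and tested, and the other 4 fell. Of all genes of the authors' test 3.21% were listed, and limma called 56% of all tested genes lower. ZFPM1 was certain to be listed, and the list was chosen with earlier results known, so these counts cannot show an excess. The median log2 change of the 5 was −0.68, beside −0.50 for all 750 tested genes. SPI1, the gene for the myeloid factor PU.1, which opposes GATA1, fell from 10.03 ± 0.221 to 6.14 ± 0.995 (limma adjusted p = 0.00108). ID1, ID2 and ID3, inhibitors of helix-loop-helix factors, fell by 0.82, 1.05 and 0.68 on the log2 scale (limma adjusted p = 0.000248, 0.000189 and 0.00106). When libraries were scaled to the sum without HBZ, which weakens every fall by its construction, the log2 changes of SPI1, ID1, ID2 and ID3 were −0.27, −0.41, −0.72 and −0.29. The calls of SPI1 and ID3 were lost in that scaling (limma adjusted p = 0.0599 and 0.0686) and over the 60664 genes (0.0871 and 0.0858), and that of ID1 with quantile normalization (0.0855). None (0) of 18 partners of FOG1 were listed, GATA1, GATA2 and the subunits of the NuRD and CtBP corepressors among them.

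**Figure D5:**
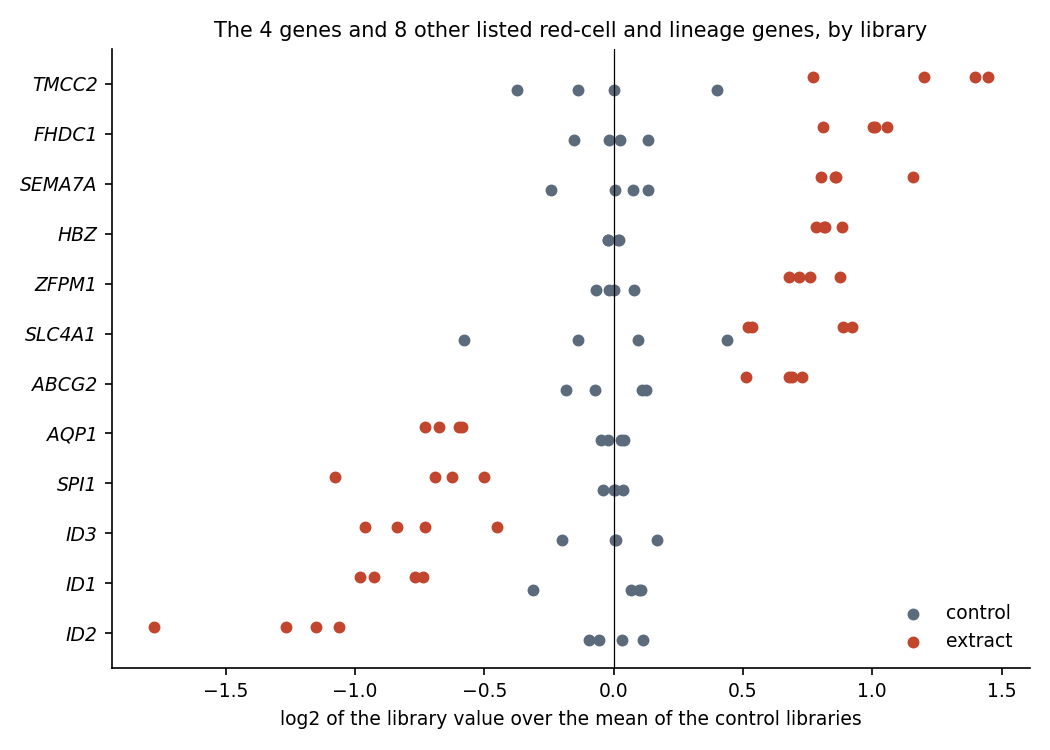
Log2 of each library's deposited value over the mean of the 4 control libraries (horizontal axis) for the 4 genes and 8 other listed red-cell and lineage genes, with 4 control and 4 extract libraries each. Extract points lie to the right of the control points for TMCC2, FHDC1, SEMA7A, HBZ, ZFPM1, SLC4A1 and ABCG2 and to the left for AQP1, SPI1 and the 3 ID genes.

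Of the 50 markers in 5 lists, 8 were listed (16%, beside 3.21% of all genes of the authors' test). The lists were chosen with earlier results of these data known, so these shares cannot show an excess of markers. None (0) of 12 erythroid markers were in the table, HBG1, ALAS2 and KLF1 among them, so the erythroid character of the cells could not be checked. Of 12 megakaryocyte markers 2 were listed, GP1BB and ITGA2B, and their summed values lay between 55.5 and 119.7 in control and between 45.9 and 59.4 in extract. GP1BB made up most of these sums (control means 81.2 and 3.48). ITGA2B alone lay between 2.70 and 4.44 in control and between 1.64 and 2.53 in extract, without overlap. Its call was lost under 4 of 16 settings, and 27.3% of all listed genes were lower without overlap. GP1BB, a chain of the platelet receptor for von Willebrand factor, was called lower (limma adjusted p = 0.0268), but its groups overlapped, the call was lost under 7 of 17 settings, and its direction turned with quantile normalization. Of 11 monocyte and granulocyte markers 2 were listed (CD68 and again SPI1, summed values 31.9 to 33.3 in control and 18.9 to 22.7 in extract). Among lymphoid markers CD3D, a T-cell receptor gene, lay between 40.05 and 43.78 in control and between 18.5 and 22.87 in extract. Of 6 fibroblast and endothelial markers 2 were listed (PECAM1 and COL1A1, 2.47 to 3.68 and 1.49 to 2.51). None of these listed markers was at 0, and their part in the changes of the 4 genes was not tested. All libraries came from the same line, K562, so these are values of marker genes within that line and not of other cell types. In bulk libraries fewer cells that express a gene and less of its RNA per cell cannot be told apart.

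Sequence around start sites was held for ZFPM1 and TMCC2. RefSeq windows (GRCh38.p14) of 250 bases before to 50 after a start were held for these 2 of the 4 genes, 1 for ZFPM1 and 6 for TMCC2. HBZ and SLC4A1 had none. Of the words that GATA factors recognise, 4 that share the core GATA were searched on both strands of all 35116 windows. The word AGATAA was held by 10.3% of the windows and the related word AGATAG by 6.63%. For the word TGATAA the share was 7.53%, and for its last form, TGATAG, it was 5.80%. At least 1 of the 4 was held by 24.97% of windows. The ZFPM1 window, 83.0% G and C against a median of 58.7%, held none of the 4. It also held no CACCC, a core word of sites of Krüppel-like factors, which 59.9% of all windows held on either strand. Other words that these factors recognise were not searched. The ZFPM1 window held no CCAAT, which was in 34.6% of windows, and no TATAA, which was in 20.4%. The last 120 bases before the ZFPM1 start (chr16:88453160-88453279, forward strand) are shown for their composition.
ZFPM1: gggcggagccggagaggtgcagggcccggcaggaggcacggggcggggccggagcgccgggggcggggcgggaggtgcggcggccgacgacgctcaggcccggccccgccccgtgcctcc
The 6 TMCC2 windows had between 48.0% and 71.7% G and C. Of these, 3 held a GATA word and 3 held none, like that of ZFPM1, and the stretches around them are shown with the words in capitals. They lie on the forward strand at chr1:205229598-205229643, chr1:205246452-205246495 and chr1:205256071-205256132.
TMCC2 window 3: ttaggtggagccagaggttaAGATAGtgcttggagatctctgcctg
TMCC2 window 4: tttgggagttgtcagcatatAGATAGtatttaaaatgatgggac
TMCC2 window 5: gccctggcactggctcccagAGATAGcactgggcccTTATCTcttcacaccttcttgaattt
Window 5 held AGATAG at 111 bases before the start and, reading the other strand, a second word, AGATAA, at 95 bases before it. These matches describe letters in the reference, and the deposited values do not say which start was used.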

How the data were processed

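RNA of 8 K562 libraries, 4 per group, was sequenced from TruSeq libraries, per the labels' protocols. HISAT2, StringTie and GRCh38 stand in the submitters' processing notes. The authors deposited per gene an expression value for each library (unit not given, 2 decimals), a p-value, an adjusted p-value, the extract to control ratio and a log2 of that fold change, per the file headers. No label ties the libraries to separate cultures. The p-values then measure the spread between these libraries only, which may be technical.

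Limma 3.58.1 (R 4.3.3) was fitted to log2(value + 1), with robust and trended moderation, over the 750 of 1950 genes that reached 1 in 4 or more libraries, with Benjamini-Hochberg adjustment and a threshold of 0.05. A change on this scale understates that of low genes. The step was also run on simulated libraries with independent noise, unlike this preselected list, so no error rate of these data is taken from them. Exact permutation tests used scipy 1.17.1. The family of 60664 genes was recovered from the deposited p-values and adjusted p-values, which gave whole ranks (within 0.02) for 100% of 1364 usable genes. The text names the 4 genes, every listed gene of 8 gene lists and 5 marker lists, with the listed markers of other lineages mostly given as summed values, and the 3 listed genes nearest to each of the 4 in profile. Some of these genes are not reported here. Members and lists were chosen with earlier results of these data known. Sequences came from GENCODE release 29 transcripts and a RefSeq promoter table, and identities from Biopython 1.88.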

Additional observations from a re-analysis of the deposited data

Results flagged for a closer look

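In groups of 4 libraries, 46 were examined for a library far from the other 3, from the named genes and the HBZ share, and 4 were found where chance alone gives about 2.3. None concerned HBZ, ZFPM1, SLC4A1 or TMCC2. SEMA7A was highest in extract 1 (13.65, the others 10.67 to 11.11), and its log2 change was 0.75 without that library against 0.82 with it. ID1 was lowest in control 5 (49.46, the others 64.23 to 66.02), and its log2 change was −0.92 without it against −0.82. CD3D, a T-cell receptor gene in the lymphoid list, was highest in extract 2 (22.87, the others 18.5 to 19), with log2 changes of −1.14 and −1.07. CYGB was at 0.04 in extract 4 and listed at 0 in the other 3 extract libraries.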

How the results depend on the processing

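HBZ, ZFPM1, SLC4A1 and TMCC2 kept their direction under every alternative that gave a value, except HBZ with quantile normalization (log2 change 0). Without 1 library at a time the log2 change of HBZ lay between 0.81 and 0.84 and that of ZFPM1 between 0.68 and 0.75. The log2 ratios of HBZ and of ZFPM1 over SLC4A1 changed by −0.11 to 0.23 and by −0.14 to 0.15, in either direction. For SLC4A1 and TMCC2 quantile normalization, the filter of 5, the moderation and the family adjustment gave no value, because they were below the filter. The 621 calls became 253 with a filter of 5 (277 genes tested) and 167 over the 60664 genes, and lay between 538 and 584 without 1 library. Calls were 201 higher and 420 lower, against 228 and 241 with median centring, 222 and 251 with quantile normalization and 230 and 195 scaled to the sum without HBZ. Of the summed tested genes alone HBZ held 21.4% in control and 39.7% in extract. Libraries of the 3 shared numbers deviated together weakly (correlations across genes 0.0754, 0.0754 and 0.149), which does not show a pairing. With the number as a replicate block 515 genes were called, against 527 in the same 6 libraries without it, a fit chosen after seeing the data. In the block fit the log2 change was 0.84 for HBZ (limma adjusted p = 0.000691) and 0.73 for ZFPM1 (0.00406). Depth is unknown, so the counting error of SLC4A1 and TMCC2 cannot be given.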

Other observations

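Of 181 annotated genes within 500 kb of the 4 genes 7 were in the table (3.87%), beside 3.21% of all genes of the authors' test. Within 500 kb of HBZ, among 54 annotated genes, 1 was listed, the noncoding Z98883.1, at a log2 fold change of 0.69 by the authors' deposited table. SLC4A1 had 2 listed neighbours among 59, one of which was ITGA2B, the gene for the platelet integrin chain CD41, at a distance of 104 kb. ITGA2B had values of 3.48 ± 0.718 in control and 2.02 ± 0.438 in extract (SD, n = 4 each), lower where SLC4A1 was higher. Its limma adjusted p was 0.00972, and its call was lost under 4 of 16 other settings (adjusted p 0.0976 to 0.786). TMCC2 had 2 listed neighbours among 30, CDK18 and SLC45A3, with −1.73 and −0.81 on the log2 scale by the authors' deposited table. The adjusted p there was 0.309 for CDK18, whose mean values were 0.243 and 0.123, and 5.24e-06 for SLC45A3. Beside its antisense gene, ZFPM1 had 1 listed neighbour among 38, the noncoding AC138028.2, at 0.79 in the authors' deposited table.

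Profiles were compared by the root mean square, over the 8 libraries, of the difference in log2 of the value over the gene's own control mean, among 866 listed genes with values above 0 in all libraries. Nearest to HBZ were SLC6A19, an amino acid transporter gene (0.0651), the kinase gene PIM1 (0.0777) and CISH, a feedback inhibitor of cytokine receptors (0.0829), and ZFPM1 held place 4 (0.0936). SLC4A1 and TMCC2 were further from HBZ, at places 106 (0.298) and 150 (0.397). Nearest to ZFPM1 were SLC6A19 (0.0738), LINC00342 (0.0774) and DMPK (0.0781). SLC4A1 was nearest to TMEM158 (0.199), WDR31 (0.213) and APOL4 (0.234). For TMCC2, UBAP1L held place 2 (0.199) and SSBP3-AS1 place 3 (0.217). Counted from SLC4A1, ZFPM1 held place 19 (0.291), HBZ place 25 (0.298) and TMCC2 place 147 (0.471). Counted from TMCC2, ZFPM1 held place 32 (0.385), HBZ place 42 (0.397) and SLC4A1 place 85 (0.471).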
